A study of Mus musculus with 12 samples.

Results

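The levels of 7 genes of insulin signaling were analysed in RNA-seq of liver and duodenum from mice treated with corticosterone (CORT) or vehicle (Veh). The genes are the insulin receptor Insr, the adaptors Irs1 and Irs2, the PI3-kinase subunit Pik3r1, the kinase Akt2, the transcription factor Foxo1 and the pseudokinase Trib1. They were chosen by name from the 55416 genes of the tables, and all 7 were found in both tissues and were above 0 TPM in at least 1 library of each. TPM is a transcript abundance scaled for transcript length and to a common total within each library.

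The mice were male C57BL6/J animals, 8 weeks old at the start, and received a subcutaneous injection every day for 8 weeks. CORT mice received corticosterone, the main glucocorticoid of rodents, at 40 mg/kg, and Veh mice received the vehicle alone. No allele was altered in either group. Each of the 4 groups (liver Veh, liver CORT, duodenum Veh and duodenum CORT) held 3 libraries, named here by treatment and number, such as Veh1. The labels call the duodenal samples intestine and mark the replicates as biological, but do not say whether a liver and a duodenum of the same number came from 1 mouse.

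Insulin binds its receptor on the cell surface, and the receptor then phosphorylates the adaptors IRS1 and IRS2. These recruit PI3-kinase, whose lipid product brings AKT kinases to the membrane and activates them. In the liver, AKT keeps FOXO1 out of the nucleus and so lowers the transcription of genes of glucose output, while another arm raises genes of fat synthesis. Glucocorticoids are known to oppose insulin in several tissues.

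The treatment could be read from Fkbp5, a gene induced by glucocorticoids, whose log2 fold change was 4.23 in liver (limma adjusted p = 0.00178) and 4.30 in duodenum (limma adjusted p = 0.00450). For Tsc22d3, also a glucocorticoid target, the values were 2.01 in duodenum (limma adjusted p = 0.0185) and 1.92 in liver, where it did not pass the test (limma adjusted p = 0.0623). Per1, the remaining control, overlapped between treatments in both tissues and was not called (limma adjusted p = 0.131 in liver and 0.365 in duodenum). Transcripts of 6 hepatocyte genes made up between 9.50% and 12.5% of TPM in the liver libraries, and those of 8 enterocyte genes between 0.892% and 1.32% in the duodenal ones. The duodenal libraries Veh2 and Veh3 stood apart from the rest, with 3.86% and 3.07% of their TPM in 16 pancreatic acinar genes against between 0.0144% and 0.0319% in the other 4. In liver, 11 of the 16 acinar genes were listed at 0 in every library. The number of reads per library is unknown, because TPM values are scaled to nearly the same total. Standard errors therefore rest on the spread between libraries, 3 per group, which limma moderates with that of all genes tested.

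RefSeq start sites were used to show the sequence before the genes described most closely below, which are the 2 members called in liver and the IRS pair. The promoter table held an entry for 5 of the 7 members, with 9 starts in all. Each window is the 250 bases upstream of a start in build GRCm38.p6, written 5′ to 3′ on the strand of the gene. Capitals mark letters that match a motif on either strand. The motifs searched were the core of the glucocorticoid receptor site ACANNNTGT, the FOXO site GTAAACA, the insulin response core CAAAACA, the CCAAT box and the TATA box TATAAA.
Foxo1, chr3:52268087-52268336, plus strand: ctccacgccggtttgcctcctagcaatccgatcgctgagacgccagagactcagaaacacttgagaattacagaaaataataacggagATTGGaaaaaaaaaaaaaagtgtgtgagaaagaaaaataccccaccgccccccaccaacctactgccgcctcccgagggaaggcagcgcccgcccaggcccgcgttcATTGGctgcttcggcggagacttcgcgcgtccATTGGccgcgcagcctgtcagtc
Pik3r1, first start, chr13:101768218-101768467, minus strand: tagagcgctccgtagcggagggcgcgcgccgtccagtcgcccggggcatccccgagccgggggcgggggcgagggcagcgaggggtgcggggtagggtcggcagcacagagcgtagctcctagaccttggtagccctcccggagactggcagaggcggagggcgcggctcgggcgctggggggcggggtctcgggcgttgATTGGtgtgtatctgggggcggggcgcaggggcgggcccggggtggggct
Pik3r1, second start, chr13:101692631-101692880, minus strand: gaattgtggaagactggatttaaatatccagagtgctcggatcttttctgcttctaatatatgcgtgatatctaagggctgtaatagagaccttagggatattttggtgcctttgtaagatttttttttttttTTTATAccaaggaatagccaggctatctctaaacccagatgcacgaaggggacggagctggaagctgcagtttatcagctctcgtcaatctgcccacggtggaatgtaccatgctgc
Irs1, chr1:82291440-82291689, minus strand: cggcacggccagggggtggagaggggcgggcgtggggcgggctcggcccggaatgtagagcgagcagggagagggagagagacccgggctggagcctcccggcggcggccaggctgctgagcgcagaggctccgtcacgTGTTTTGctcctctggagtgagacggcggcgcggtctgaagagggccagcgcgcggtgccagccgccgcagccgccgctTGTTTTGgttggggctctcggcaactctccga
Irs2, chr8:11008930-11009179, minus strand: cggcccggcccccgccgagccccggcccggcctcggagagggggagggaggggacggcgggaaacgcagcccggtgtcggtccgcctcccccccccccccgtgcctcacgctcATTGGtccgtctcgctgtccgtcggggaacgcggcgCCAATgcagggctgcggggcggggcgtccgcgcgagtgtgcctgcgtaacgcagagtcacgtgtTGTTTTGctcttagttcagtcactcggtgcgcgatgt

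In the Foxo1 window the capitals are 3 CCAAT boxes on the opposite strand, with 157, 50 and 18 bases between them and the start. The window of the first Pik3r1 start held 1 CCAAT box on the opposite strand, 45 bases before the start. That of the second held the letters of 1 TATA box, also on the opposite strand, 111 bases before the start. On the opposite strand, the insulin response core was found 2 times before Irs1, with 104 and 25 bases to the start. It was found 1 time before Irs2, also on the opposite strand, with 30 bases to the start. The Irs2 window also held 2 CCAAT boxes, with 132 and 96 bases to the start, the farther of them on the opposite strand. Of 32851 promoter windows of the same length, 5.56% held the insulin response core, 33.8% the CCAAT box and 12.4% the TATA box. The glucocorticoid receptor core stood in 5.84% of all windows and the FOXO site in 3.17%, and neither stood in a window of a member. These matches describe letters in a short window and are no measure of binding.

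In the liver, transcripts of Pik3r1 and Foxo1 rose in CORT mice, and those of the other 5 members did not pass the test. Expression was compared as log2(TPM + 1) with limma, and a gene was called when its Benjamini-Hochberg adjusted p was 0.05 or less and its fold change over 1.5. Of 11699 genes tested in liver, 4.91% were called higher and 2.01% lower, and 2 of the 7 members were called higher and 0 lower. The median log2 fold change of the 7 members was 0.38, against 0.08 over all genes tested in liver. Since the tissues were sequenced whole, a change in the number of cells of a type and a change in RNA per cell cannot be told apart in any of these values.

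Pik3r1 (ENSMUSG00000041417) encodes a regulatory subunit of PI3-kinase, which holds the catalytic subunit and docks it to IRS proteins. Its level was 7.72, 7.44 and 7.49 TPM in the Veh livers and 17.5, 16.2 and 19.4 TPM in the CORT livers. Every CORT liver thus lay above every Veh liver, and the Veh livers were close to each other. The mean was 7.55 ± 0.149 TPM (SD, n = 3) in Veh and 17.7 ± 1.64 TPM (SD, n = 3) in CORT livers, a ratio of 2.34. On the log2 scale this was a change of 1.12 (standard error 0.12, 95% interval 0.84 to 1.41, limma adjusted p = 0.00552). This call held in all 6 fits that left out 1 library.

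Foxo1 (ENSMUSG00000044167), the forkhead factor that AKT phosphorylates, was at 3.23, 4.17 and 4.64 TPM in the Veh livers. In the CORT livers it was at 10.1, 6.59 and 9.57 TPM. The groups did not overlap, and CORT2 was the lowest of the CORT livers. From a mean of 4.01 ± 0.718 TPM (SD, n = 3) to 8.76 ± 1.90 TPM (SD, n = 3), the ratio was 2.18 and the log2 fold change 0.95 (standard error 0.20, 95% interval 0.49 to 1.41, limma adjusted p = 0.0357). The call of Foxo1 was less firm than that of Pik3r1. It held without CORT2 (limma adjusted p = 0.0316) and was lost without any other library. The limma adjusted p was 0.103 without Veh1, 0.0616 without Veh2 and 0.0815 without Veh3. Without CORT1 it was 0.128, and without CORT3 it was 0.0936. Its log2 fold change stayed between 0.83 and 1.12 in these fits.

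Endothelial transcripts moved in the same direction in these livers. The summed level of 4 endothelial markers ran from 4.92 to 13.6 TPM in the Veh livers and from 20.9 to 28.3 TPM in the CORT livers. All 4 markers were higher in every CORT liver than in every Veh liver. The adhesion molecule Pecam1 was the 1 marker called (log2 fold change 1.52, limma adjusted p = 0.0370). Among all genes tested in liver, 20.6% were wholly higher and 4.91% called higher. The part of endothelial transcripts in the values of Pik3r1 and Foxo1 was not tested. In duodenum the same sum overlapped between groups, from 24.3 to 33.2 TPM in Veh and from 23.5 to 33.5 TPM in CORT.

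**Figure D1:**
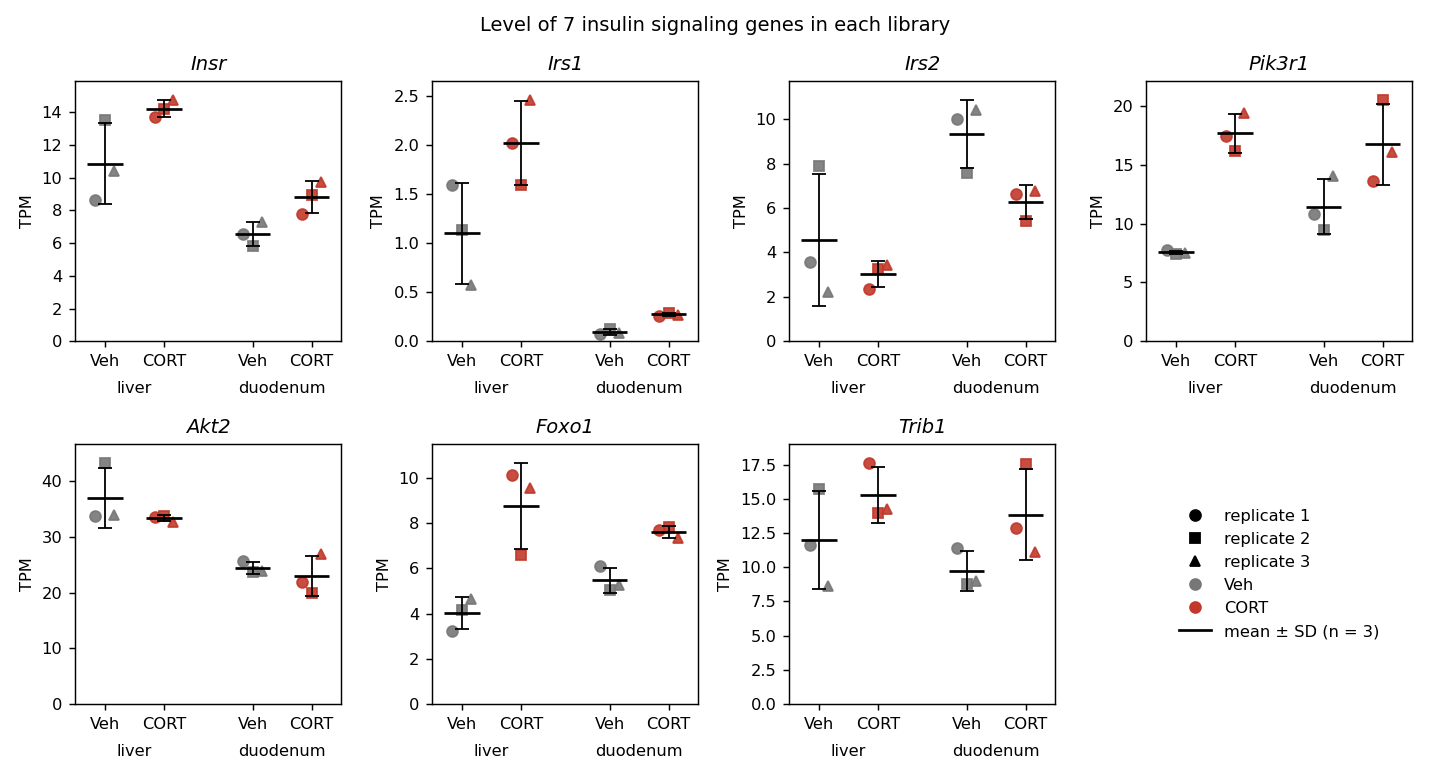
TPM of the 7 genes (vertical axes, linear from 0) in each Veh (grey) and CORT (red) library of liver and duodenum, with the replicate number as the symbol and the mean ± SD of 3 libraries as a line with bars. Pik3r1 in liver sits between 7.44 and 7.72 TPM in Veh and between 16.15 and 19.41 TPM in CORT, whereas the Akt2 libraries of the 2 treatments overlap in both tissues.

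Insr (ENSMUSG00000005534), the receptor itself, was at 8.66, 13.6 and 10.4 TPM in the Veh livers and at 13.7, 14.2 and 14.7 TPM in the CORT livers. The groups did not overlap, but Veh2 lay close below the lowest CORT liver. A log2 fold change of 0.38 did not pass the test (standard error 0.17, 95% interval -0.02 to 0.78, limma adjusted p = 0.212). Non-overlap with CORT above Veh was found for 3 of the 7 members in liver (Insr, Foxo1 and Pik3r1) and for 20.6% of all genes tested. CORT lay wholly below Veh for 0 of the 7 members and for 11.6% of all genes tested in liver.

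The adaptors had low transcript levels in liver. Irs1 (ENSMUSG00000055980) was at 1.60, 1.14 and 0.57 TPM in Veh and at 2.02, 1.60 and 2.46 TPM in CORT livers. The highest Veh and the lowest CORT liver had the same value. For Irs1 the log2 fold change was 0.55 (standard error 0.24, 95% interval -0.03 to 1.12, limma adjusted p = 0.210). Irs2 (ENSMUSG00000038894) was at 3.57, 7.90 and 2.21 TPM in Veh and at 2.34, 3.27 and 3.42 TPM in CORT livers. All CORT values lay within the range of the Veh livers, whose top was Veh2. For Irs2 the log2 fold change was -0.35 (standard error 0.36, 95% interval -1.20 to 0.50, limma adjusted p = 0.577), and without Veh2 it was 0.055 (limma adjusted p = 0.886).

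The library Veh2 stood apart in other insulin-related genes as well, in both directions, which were named after their values were seen. Its Igfbp1, an IGF-binding protein that insulin represses, was at 206 TPM, against 51.6 and 75.2 TPM in the other Veh livers. Its Socs3, an inhibitor of cytokine and insulin receptor signaling, was at 41.9 TPM, against 6.77 and 3.86 TPM. It was the lowest Veh liver for the glucose output enzymes G6pc, at 31.6 TPM against 80.3 and 121 TPM, and Pck1, at 545 TPM against 804 and 1448 TPM. Without Veh2 the mean of Irs2 in Veh livers was 2.89 TPM in place of 4.56 TPM.

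Akt2 (ENSMUSG00000004056), the AKT kinase most linked to glucose metabolism, had the highest mean level of the 7 genes in both tissues. It was at 33.8, 43.2 and 33.9 TPM in the Veh livers and at 33.5, 33.8 and 32.7 TPM in the CORT livers. The ranges met at the lower end of Veh, and Veh2 stood above all others. Its log2 fold change was -0.14 (standard error 0.14, 95% interval -0.46 to 0.19, limma adjusted p = 0.569). Trib1 (ENSMUSG00000032501), a pseudokinase of the Tribbles family that guides proteins to degradation and is known from liver lipid metabolism, was at 11.6, 15.7 and 8.64 TPM in Veh and at 17.6, 14.0 and 14.3 TPM in CORT livers. The highest Veh liver lay above the lower CORT livers. For Trib1 the log2 fold change was 0.36 (standard error 0.22, 95% interval -0.16 to 0.87, limma adjusted p = 0.350).

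In the duodenum none of the members was called, and 4 of the 6 tested had a log2 fold change above 0. Among all genes tested there, 48.5% had a log2 fold change above 0. Of 13607 genes tested, 1.23% were called higher and 0.919% lower, and 0 of the 6 members tested in duodenum were called by limma. At an unadjusted p under 0.05, 4 of the 6 members passed, 3 of them higher in CORT, beside 19.2% of all genes tested in duodenum. In liver the same limit was passed by 2 of 7 members and by 25.9% of all genes. The median log2 fold change of the 6 members was 0.40 in duodenum, against -0.01 over all genes tested there. CORT lay wholly above Veh for 2 of the 6 tested members, beside 12.2% of all genes tested, and wholly below for 1 of the 6, beside 14.3%.

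Insr was at 6.56, 5.80 and 7.27 TPM in the Veh duodena and at 7.78, 8.93 and 9.75 TPM in the CORT duodena. All 3 CORT values lay above the Veh values. For Insr the log2 fold change there was 0.38 (standard error 0.14, 95% interval 0.05 to 0.71, limma adjusted p = 0.208). Irs2 was at 10.01, 7.59 and 10.4 TPM in Veh and at 6.62, 5.41 and 6.79 TPM in CORT duodena. It was the only tested member in duodenum whose CORT libraries all lay below the Veh libraries. Its log2 fold change there was -0.50 (standard error 0.16, 95% interval -0.88 to -0.12, limma adjusted p = 0.167). Irs1 was near the floor of the table, at 0.07, 0.13 and 0.08 TPM in Veh and at 0.26, 0.29 and 0.27 TPM in CORT duodena. These values did not overlap, but the gene was under the limit of 1 TPM in mean level and was not tested.

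Foxo1 was at 6.10, 5.04 and 5.26 TPM in the Veh duodena and at 7.71, 7.83 and 7.33 TPM in the CORT duodena. The groups did not overlap. A log2 fold change of 0.42 missed the threshold (standard error 0.13, 95% interval 0.12 to 0.71, limma adjusted p = 0.146). Pik3r1 was at 10.8, 9.47 and 14.0 TPM in Veh and at 13.6, 20.5 and 16.1 TPM in CORT duodena. Here Veh3 lay above the lowest CORT duodenum, unlike in liver. In duodenum Pik3r1 differed by 0.51 on the log2 scale (standard error 0.20, 95% interval 0.04 to 0.98, limma adjusted p = 0.225).

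Akt2 was at 25.6, 23.7 and 23.8 TPM in the Veh duodena and at 21.9, 20.0 and 26.9 TPM in the CORT duodena, and the groups overlapped (log2 fold change -0.09, limma adjusted p = 0.746). Trib1 was at 11.4, 8.80 and 8.96 TPM in Veh and at 12.9, 17.5 and 11.1 TPM in CORT duodena, and Veh1 lay above the lowest CORT value. Its log2 fold change in duodenum was 0.45 (standard error 0.19, limma adjusted p = 0.260). With Veh1 as the only Veh duodenum, since Veh2 and Veh3 carried the acinar transcripts, the log2 fold changes kept their signs. They were 0.37 for Insr, -0.60 for Irs2, 0.28 for Foxo1, 0.57 for Pik3r1 and 0.23 for Trib1, and 0 members were called. The summed level of 5 smooth muscle markers ran from 370 to 747 TPM in the Veh and from 242 to 383 TPM in the CORT duodena. Of the 5 markers, 2 were wholly lower in CORT and 0 were called. Among all genes tested in duodenum, 14.3% were wholly lower and 0.919% called lower. The part of smooth muscle transcripts in the members' values was not tested. The fit with Veh1 alone assumes that the lone Veh library varies like the CORT libraries.

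**Figure D2:**
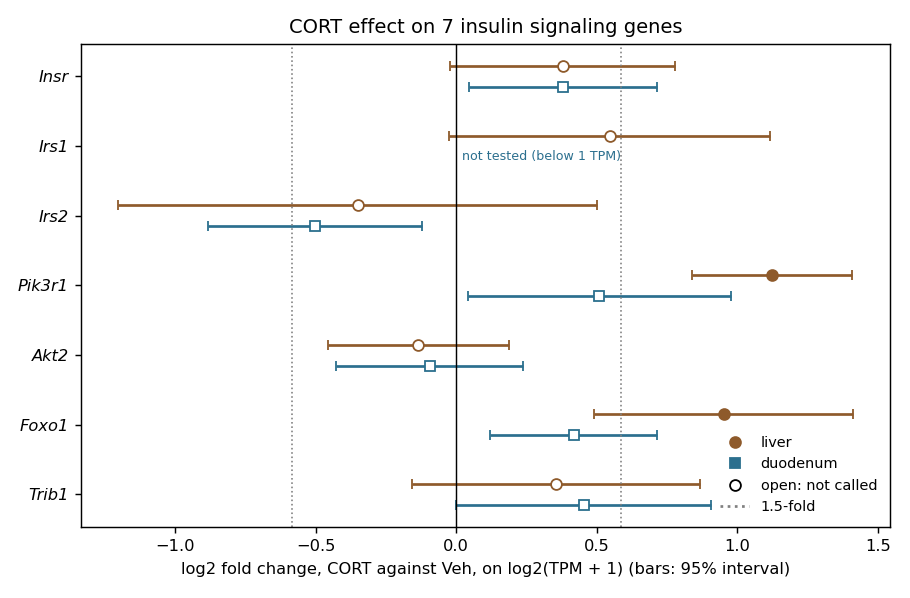
Log2 fold change of CORT against Veh on the log2(TPM + 1) scale (horizontal axis) for the 7 genes in liver (brown circles) and duodenum (blue squares), with 95% intervals as bars, filled symbols for called genes and dotted lines at a 1.5-fold change. Pik3r1 (1.12) and Foxo1 (0.95) in liver are the only filled symbols, and the Irs2 symbols of both tissues lie below 0.

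The difference in the CORT effect between liver and duodenum was tested in a fit of all 12 libraries with a treatment by tissue term. The fit treated the libraries as independent, although a liver and a duodenum of the same number may come from 1 mouse. A block of treatment and number lowered the genes with a different effect from 534 to 210, with 0 of the 7 members among them. In the fit without the block, 3.61% of 14806 genes tested had a different effect at an adjusted p of 0.05 or less, and 0 of the 7 members did. At an unadjusted p under 0.05, 2 of the 7 members passed, beside 18.3% of all genes. These were Pik3r1, whose log2 fold change was greater in liver by 0.61 (95% interval 0.10 to 1.13, limma adjusted p = 0.194), and Foxo1, where it was greater in liver by 0.53 (95% interval 0.02 to 1.04, limma adjusted p = 0.250). So the calls of both genes in liver alone do not show a response particular to liver. For Insr the log2 fold changes of the tissues were nearly equal, with a difference of -0.001 and a 95% interval from -0.48 to 0.48. The interval of the difference was -0.46 to 0.37 for Akt2, -0.77 to 0.57 for Trib1 and -0.79 to 1.09 for Irs2.

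The order of levels among the 7 genes was partly shared by the groups. Levels of the tissues come from separate tables, so they are set side by side and were not tested. Akt2 was highest and Irs1 lowest by mean TPM in all 4 groups. In Veh livers the order by mean TPM was Akt2, Trib1, Insr, Pik3r1, Irs2, Foxo1 and Irs1. The ranges of Trib1 and Insr overlapped there, as did those of Pik3r1 and Irs2 and those of Irs2 and Foxo1, so these neighbours did not differ beyond their spread. In CORT livers Pik3r1 stood at rank 2, with a range that overlapped that of Trib1, and Foxo1 stood at rank 5, apart from Irs2 below it. In Veh duodena Pik3r1, Trib1 and Irs2 followed Akt2, each overlapping with the next, and Irs2 stood at rank 4. In CORT duodena Irs2 was at rank 6, apart from Foxo1 above it and Irs1 below it. The ranges of Akt2 (20.0 to 26.9 TPM) and Pik3r1 (13.6 to 20.5 TPM) overlapped in that group.

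Several members have close relatives with the same role, so the share of each in the TPM of its family was also computed. These shares were chosen after the values were seen and were not tested. Pik3r1 made up 47.9%, 41.0% and 47.3% of the TPM of the regulatory subunits Pik3r1, Pik3r2 and Pik3r3 in Veh livers, and 66.3%, 67.5% and 72.9% in CORT livers. In duodenum its share was 21.2%, 25.2% and 29.3% in Veh and 34.4%, 51.1% and 36.8% in CORT. The share was thus higher in every CORT library than in every Veh library of the same tissue.

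The total of the regulatory subunits was also computed, and its difference between tissues was not tested. In liver the summed TPM was 16.7 ± 1.25 (SD, n = 3) in Veh and 25.6 ± 1.48 (SD, n = 3) in CORT, without overlap. In duodenum the summed TPM was 45.5 ± 6.99 (SD, n = 3) in Veh and 41.1 ± 2.27 (SD, n = 3) in CORT, and the groups overlapped. Pik3r2, the other widely expressed regulatory subunit, was at 37.5, 26.3 and 31.9 TPM in the Veh duodena and at 23.0, 16.1 and 24.6 TPM in the CORT duodena. Its log2 fold change of -0.57 did not pass the test (limma adjusted p = 0.192). The ratio of Pik3r1 to the summed catalytic subunits Pik3ca, Pik3cb and Pik3cd went from 1.14 ± 0.282 (SD, n = 3) in Veh to 1.91 ± 0.212 (SD, n = 3) in CORT livers. In duodenum this ratio was 0.820 ± 0.159 (SD, n = 3) in Veh and 1.12 ± 0.0898 (SD, n = 3) in CORT.

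Foxo1 made up 19.3%, 18.3% and 20.9% of the TPM of Foxo1, Foxo3 and Foxo4 in Veh livers and 31.7%, 28.2% and 31.0% in CORT livers. In duodenum the same share was 17.8%, 17.5% and 16.2% in Veh and 18.5%, 19.4% and 18.6% in CORT. Both tissues were without overlap, with a wider gap in liver. Irs2 made up 69.1%, 87.4% and 79.5% of the TPM of Irs1 and Irs2 in Veh livers and 53.7%, 67.1% and 58.2% in CORT livers. In duodenum, where the level of Irs1 was low, the Irs2 share was between 98.3% and 99.3% in Veh and between 94.9% and 96.2% in CORT. The shares of Insr in the sum of Insr and Igf1r and of Trib1 among Trib1 to Trib3 overlapped between treatments in both tissues.

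**Figure D3:**
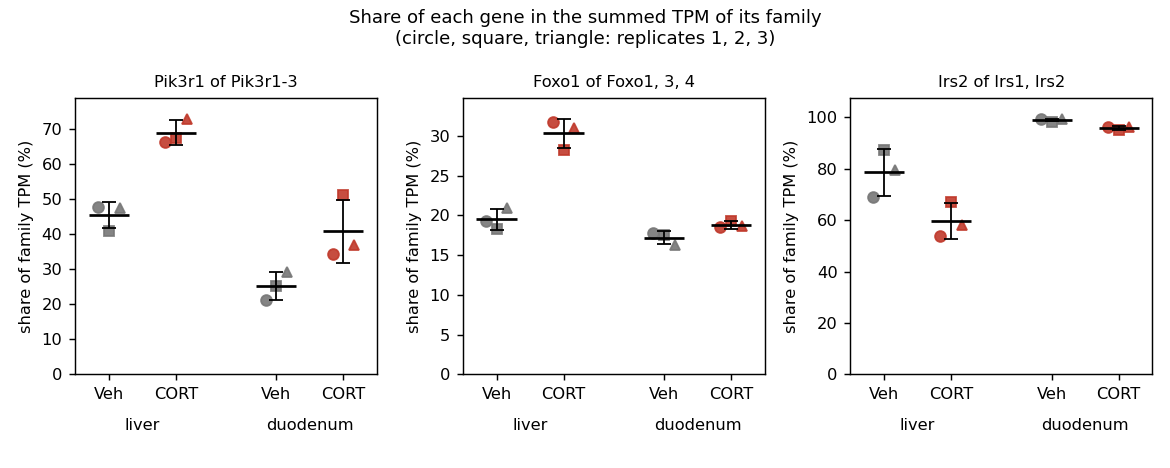
Share (percent of TPM, vertical axes from 0) of Pik3r1, Foxo1 and Irs2 in the summed TPM of their families in each library, grey for Veh and red for CORT, with the mean ± SD of 3 libraries. The Pik3r1 share is between 41.0% and 47.9% in Veh livers and between 66.3% and 72.9% in CORT livers, and the Foxo1 share is between 18.3% and 20.9% in Veh livers and between 28.2% and 31.7% in CORT livers.

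Beyond the 7 members, a list of 80 further genes of the pathway, in 9 groups by role, was described. In liver 65 of them were tested, of which 3 were called higher (4.62%) and 4 lower (6.15%), beside the 4.91% and 2.01% of all genes given above. Their median log2 fold change was 0.14, against 0.08 over all genes tested in liver. CORT lay wholly above Veh for 14 of the 65 (21.5%) and wholly below for 9 (13.8%), beside 20.6% and 11.6% of all genes tested in liver. At an unadjusted p under 0.05, 18 of the 65 passed (27.7%), close to the 25.9% of all genes. The shares called higher and passing at an unadjusted p were thus close to those of all genes. All 4 genes called lower belonged to the group of 11 genes that insulin induces in liver. The difference of their share from the 2.01% of all genes was not tested.

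Of the receptors and ligands, 0 of 4 reached the limit for testing, and Ins1 and Ins2, the insulin genes, were listed at 0 in every liver. Of the other adaptors 7 were tested and 0 called by limma (1 at an unadjusted p under 0.05), with Cbl, a ubiquitin ligase, showing the greatest log2 fold change of 0.65 (limma adjusted p = 0.287). Of the other genes of PI3-kinase, PDK1 and AKT, 7 were tested and 0 called by limma (1 at an unadjusted p under 0.05). The greatest log2 fold change in this group was that of Pdpk1, the kinase that activates AKT, at 0.55 (limma adjusted p = 0.0676). The related factors Foxo3 (log2 fold change 0.31, limma adjusted p = 0.364) and Foxo4 were not called either.

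In the groups of GSK3, the mTORC1 arm and the negative regulators, 1 gene each rose in liver. Gsk3b, a kinase that AKT inhibits and that restrains glycogen synthesis, was at 3.64, 4.77 and 3.01 TPM in Veh and at 8.02, 7.53 and 7.77 TPM in CORT livers (log2 fold change 0.88, limma adjusted p = 0.0262). It was 1 of 3 genes tested in the group of GSK3 and glucose transport. Ddit4, an inhibitor of mTORC1 that glucocorticoids induce, was at 3.68, 4.42 and 20.3 TPM in Veh and at 85.9, 31.4 and 136 TPM in CORT livers (log2 fold change 3.16, limma adjusted p = 0.0448). It was the only gene called of 12 tested in the mTORC1 arm. Among 13 negative regulators tested, only Ptpn1, the tyrosine phosphatase that dephosphorylates the insulin receptor, was called. Ptpn1 was at 7.48, 8.39 and 6.81 TPM in Veh and at 13.5, 13.6 and 13.5 TPM in CORT livers (log2 fold change 0.77, limma adjusted p = 0.0171). The greatest log2 fold change among these regulators was that of Socs2, at -1.07, which did not pass (limma adjusted p = 0.381). It rested on Veh2, at 15.4 TPM against 1.39 and 2.58 TPM in the other Veh livers, and was -0.25 without it.

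Genes that FOXO1 is known to drive in liver were called by limma in 0 of 10 tested (1 at an unadjusted p under 0.05), and the median log2 fold change of the group was 0.22. Pdk4, a kinase that blocks glucose oxidation, came nearest, with 0.53, 1.93 and 0.59 TPM in Veh and 2.98, 3.97 and 2.28 TPM in CORT livers (log2 fold change 1.06, limma adjusted p = 0.0833). The glucose output enzymes Pck1 and G6pc, named after their values were seen, overlapped between treatments in liver. Pck1 was at 932 ± 465 TPM (SD, n = 3) in Veh and 1069 ± 295 TPM (SD, n = 3) in CORT livers, and G6pc at 77.6 ± 44.7 TPM (SD, n = 3) and 119 ± 32.8 TPM (SD, n = 3).

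Of 11 genes reported here that insulin is known to induce in liver, 4 were called lower and 0 higher by limma. At an unadjusted p under 0.05, 7 passed, among them Acacb, Thrsp and Pnpla3, which were higher in CORT. CORT lay wholly below Veh for 4 of the 11 and wholly above for 3, beside 11.6% and 20.6% of all genes tested in liver. Srebf1, the transcription factor of fat synthesis, was at 90.9, 135 and 63.3 TPM in Veh and at 31.5, 36.4 and 17.8 TPM in CORT livers. Its log2 fold change was -1.71 (limma adjusted p = 0.0339). Of the enzymes of fat synthesis in the group, 3 fell. The log2 fold change was -1.44 for Fasn (limma adjusted p = 0.0150), -1.20 for Acly (limma adjusted p = 0.0267) and -0.72 for Acaca (limma adjusted p = 0.0426). Elovl6 (-0.46, limma adjusted p = 0.274), Scd1 (0.89, limma adjusted p = 0.334) and Me1 (0.82, limma adjusted p = 0.311) did not pass. Nor did Acacb (1.57, limma adjusted p = 0.0555) and Pnpla3 (0.94, limma adjusted p = 0.0564), whose CORT livers all lay above the Veh livers. These genes were named after their values were seen. Thrsp, which had the greatest log2 fold change of the group at 1.74, was also higher in CORT without passing the test (limma adjusted p = 0.0954).

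These liver calls were lost more often than that of Pik3r1 when single libraries were left out. The number of pathway genes called was 0 without CORT1, 2 without CORT2, 3 without CORT3, 2 without Veh1 and 5 without Veh2 or without Veh3, from 7 with all libraries. These were not always genes of the first 7. Without Veh2, Ddit4, Srebf1, Acly and Acaca lost their calls. Pdk4 (log2 fold change 1.37, limma adjusted p = 0.0315) and Pdpk1 (0.66, limma adjusted p = 0.0389) were called there instead. Calls over all liver genes went from 810 to 247 without CORT1, 435 without CORT2, 522 without CORT3, 315 without Veh1, 831 without Veh2 and 303 without Veh3. Of the 6 fits that left out 1 library, Fasn was called in 5, Ddit4, Ptpn1 and Acly in 2, Gsk3b and Srebf1 in 1 and Acaca in 0. Fasn lost its call without CORT1. The direction did not change in any of these fits, with log2 fold changes from -1.61 to -1.26 for Fasn, -1.98 to -1.42 for Srebf1 and 0.76 to 1.02 for Gsk3b.

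**Figure D4:**
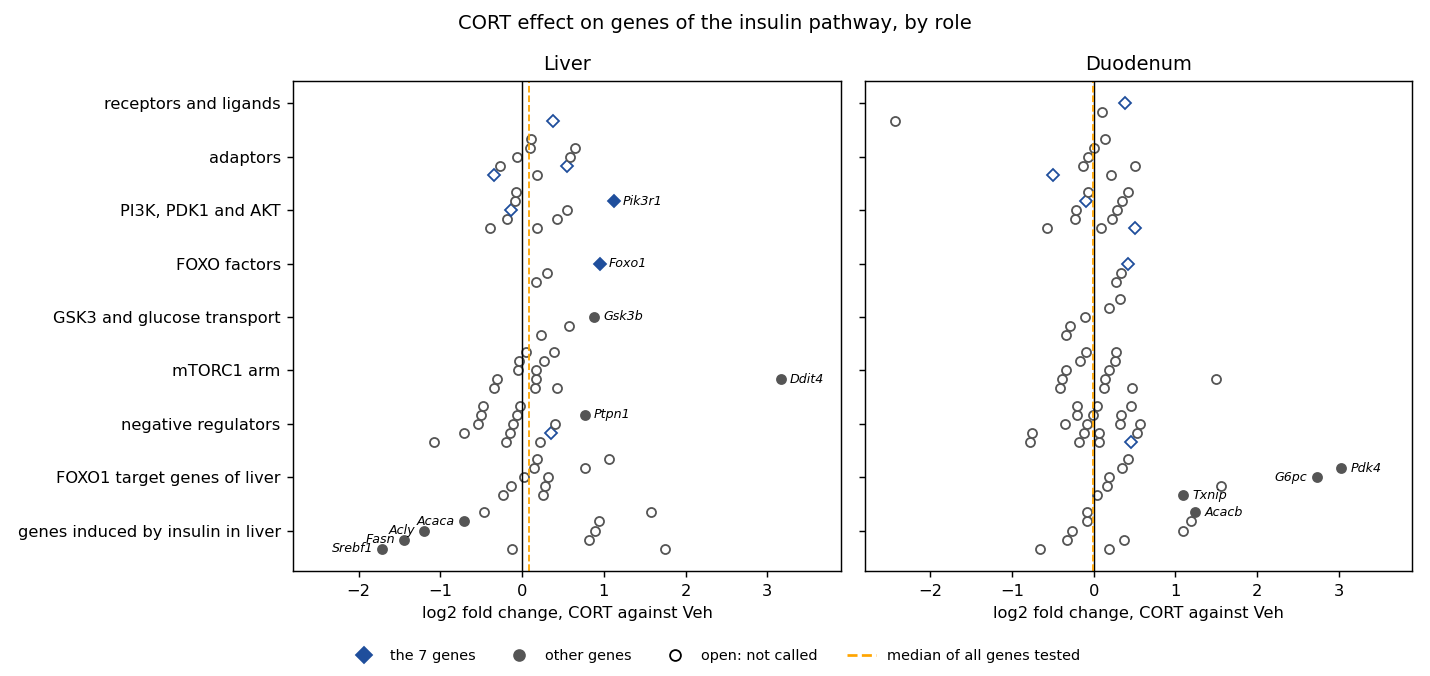
Log2 fold change of CORT against Veh (horizontal axes) for the tested genes of the pathway, in rows by role, in liver (left) and duodenum (right), with blue diamonds for the 7 genes, grey circles for the others, filled symbols and names for called genes, and a dashed line at the median of all genes tested. In liver the called genes lie on both sides of 0 (Ddit4 at 3.16, Srebf1 at -1.71), and in duodenum all called genes lie above 0, led by Pdk4 at 3.03.

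In the duodenum 72 of the 80 pathway genes were tested, and 4 were called higher (5.56%) and 0 lower, beside 1.23% and 0.919% of all genes tested there, with a median log2 fold change of 0.11. At an unadjusted p under 0.05, 20 of the 72 passed (27.8%), 16 of them higher, beside 19.2% of all genes tested in duodenum. CORT lay wholly above Veh for 17 of the 72 (23.6%) and wholly below for 9 (12.5%), beside 12.2% and 14.3% of all genes. Of the 9 tested genes that FOXO1 drives in liver, 3 were called and all 9 had a log2 fold change above 0. Among all genes tested in duodenum, 48.5% had a log2 fold change above 0. Whether FOXO1 drove these genes in duodenum was not tested. Pdk4 was at 12, 8.80 and 18.4 TPM in Veh and at 135, 124 and 77.4 TPM in CORT duodena (log2 fold change 3.03, limma adjusted p = 0.00809). G6pc, the enzyme that releases free glucose, was at 24.8, 9.84 and 10.6 TPM in Veh and at 101, 124 and 73.4 TPM in CORT duodena (log2 fold change 2.73, limma adjusted p = 0.0205). Txnip, a regulator of glucose uptake, was at 99.8, 116 and 147 TPM in Veh and at 272, 265 and 236 TPM in CORT duodena (log2 fold change 1.10, limma adjusted p = 0.0305). In all 3 genes the treatments did not overlap.

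The other call in duodenum was Acacb, the acetyl-CoA carboxylase that restrains fatty acid oxidation. It was at 1.20, 1.51 and 1.31 TPM in Veh and at 5.18, 3.20 and 5.54 TPM in CORT duodena (log2 fold change 1.24, limma adjusted p = 0.0372). It was the only gene called of 10 tested in the group that insulin induces in liver. The adaptors, PI3-kinase and AKT genes, FOXO factors, mTORC1 arm and negative regulators had 0 calls by limma in duodenum, with 11 of 46 genes at an unadjusted p under 0.05. Their greatest log2 fold changes were 0.50 for Gab1, -0.57 for Pik3r2, 0.34 for Foxo4, 1.495 for Ddit4 and -0.77 for Socs3.

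Leaving out single libraries also moved the duodenal calls. Pdk4 was called in all 6 such fits, G6pc in 2, and Txnip and Acacb in 1. The number of pathway genes called was 1 without Veh2 or without CORT1 and 2 without Veh3, without CORT2 or without CORT3. Without Veh1 it was 4, of which 3 were higher. These were not the same 4 genes, since Txnip and Acacb lost their calls without Veh1. Calls over all duodenal genes went from 292 to 237 without Veh1 and to between 66 and 112 without any other single library. With Veh1 as the only Veh duodenum 0 of the 72 and 10 of all genes were called. Ins2, an insulin gene of pancreatic islets, was at 4.97 TPM in Veh2 and 25.4 TPM in Veh3 and was listed at 0 in the other 4 duodenal libraries. These were the libraries with acinar transcripts, and Ins2 did not pass the test (log2 fold change -2.43, limma adjusted p = 0.266).

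The genes most like Foxo1 and Pik3r1 were sought by Pearson's r over the 12 libraries, after centring each tissue, among 10500 genes tested in both tissues. For Foxo1 these were Tmem131 (r = 0.969), Stard8 (r = 0.961) and the ubiquitin ligase Rnf169 (r = 0.961). For Pik3r1 they were the Golgi lipid-binding protein Plekha3 (r = 0.968), the sulfotransferase Sult1d1 (r = 0.964) and Zrsr1 (r = 0.954). Zrsr1 has a near copy, Zrsr2, so reads could be split between them. The 12 points share the treatment, so these values describe likeness across both groups and carry no test.

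The plot of the settings shows how far the values of Pik3r1, Foxo1 and Irs2 depended on the processing.

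**Figure D5:**
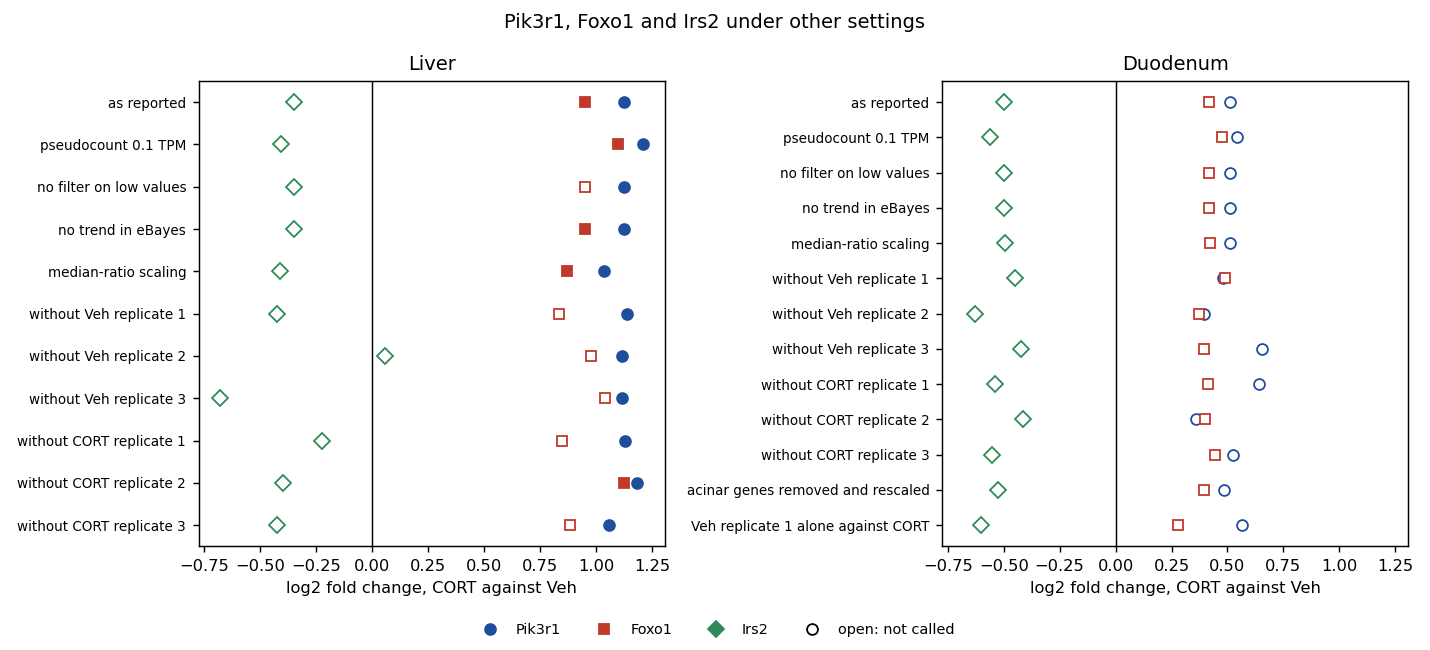
Log2 fold change of CORT against Veh (horizontal axes) for Pik3r1 (blue circles), Foxo1 (red squares) and Irs2 (green diamonds) under the processing settings on the vertical axis, in liver and duodenum, with filled symbols for called values. Pik3r1 in liver is filled under every setting shown, from 1.03 to 1.21, Foxo1 in liver is open under several, and Irs2 in liver crosses 0 without Veh replicate 2.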

How the data were processed

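RNA of liver and duodenum was sequenced as paired-end TruSeq libraries, 3 per group. According to their methods, the authors used SeqPrep and Sickle for trimming, HISAT2 for alignment, StringTie for assembly and RSEM for quantification, and tested for DEGs with DESeq2. The submitters' processing notes name build GRCm39. Tool versions are not given in the sources used here. The deposited tables give TPM of single libraries, so the study's count test could not be repeated.

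Values were transformed as log2(TPM + 1). Genes whose mean reached 1 TPM in the Veh or the CORT group were fitted with limma 3.58.1 in R 4.3.3 (lmFit, eBayes with trend), each tissue alone, and 12 libraries together for the difference between tissues. Fold changes on this scale understate those of low genes. P-values were adjusted by Benjamini-Hochberg over all genes tested. The scripts were tested on simulated data. Single genes were also compared by exact permutation, which cannot give a two-sided p below 0.1 with 3 against 3.

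The members, lists and tests were chosen with earlier results of these data known. Named are the 7 members in both tissues, the called pathway genes, the gene with the greatest change of each group, the 3 genes most like each called member, and Fkbp5 and Tsc22d3. Some genes of the pathway list are not reported here and are left out of its counts. Alternatives were another pseudocount, no filter, a replicate block, no trend, unadjusted p-values, calls without a fold limit, median-ratio scaling, rescaling without acinar genes and leaving out each library. Using Veh1 as the only Veh duodenum was chosen after seeing the data. Promoters are from RefSeq (GRCm38.p6). The build differs from that of the deposited tables, which give no coordinates. Whether replicates share a cage or day is not stated, so p-values measure the spread between these samples.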

Additional observations from a re-analysis of the deposited data

Results flagged for a closer look

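The members of the pathway list below had a CORT effect that differed between liver and duodenum, by the treatment by tissue term in limma (log2 fold change in liver minus that in duodenum) or by direction alone. None of the 7 members did so.

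Srebf1 had the greatest difference, -2.91 (limma adjusted p = 0.00908), with a log2 fold change of -1.71 in liver and 1.20 in duodenum. The duodenal value did not pass its own test (limma adjusted p = 0.0827). Fasn differed by -1.36 (limma adjusted p = 0.0267) and Acly by -1.12 (limma adjusted p = 0.0463), and both had log2 fold changes near 0 in duodenum, -0.09 and -0.08. Pdk4 differed by -1.97 (limma adjusted p = 0.0416), with a log2 fold change of 1.06 in liver and 3.03 in duodenum. Sesn3, a stress-induced regulator of mTORC1, lay below Veh in every CORT liver (log2 fold change -0.23) and above Veh in every CORT duodenum (0.34). The difference for Sesn3, -0.57, did not pass the adjusted test (limma adjusted p = 0.2003).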

How the results depend on the processing

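Of the 11 alternatives that could end a call, Pik3r1 in liver was called under all 11, with log2 fold changes from 1.03 to 1.21. Foxo1 in liver was called under 4 of the 11, with adjusted p from 0.0316 to 0.128, and its sign did not change. Settings with unadjusted p-values kept the limit of 1.5-fold. The number of members called in liver was 2, 1 with no filter on low values and 1 with the replicate block, and it ran from 1 to 2 when libraries were left out. The number of pathway genes called in liver was 7, and 1 with no filter, 2 with the replicate block, 12 with unadjusted p-values and 0 to 5 with libraries left out. In duodenum it was 4, and 1 with no filter, 0 with the replicate block, 11 with unadjusted p-values, 1 to 4 with libraries left out and 0 with Veh1 alone. Without a filter 23316 genes were tested in liver and 24876 in duodenum. Members called in duodenum stayed at 0 under every alternative, as those at an unadjusted p under 0.05 did not reach 1.5-fold, and those that differed between tissues at 0 except at unadjusted p, where there were 2. Irs2 in liver ran from -0.68 to 0.055 with libraries left out and changed sign without Veh2.

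Correlations of deviations between same-numbered Veh and CORT libraries ran from -0.172 to 0.0520, and not every library correlated best with its own number. Between liver and duodenum of the same number they ran from -0.133 to 0.102. With 3 libraries per group, these values cannot show whether samples of a number share a cage or day, or a liver and a duodenum a mouse. The replicate block thus rests on the number alone. Median-ratio scaling moved the median log2 fold change in liver from 0.08 to -0.003 and the called genes from 575 higher and 235 lower to 543 and 468. Members called did not change with it. Depth is unknown for TPM, so the counting error of low genes such as Irs1 in duodenum cannot be estimated.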
